A study of Schizosaccharomyces pombe with 12 samples.

Results

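In fission yeast, Schizosaccharomyces pombe, the genes ste11 and mei2, 2 regulators of Mei2 and Ste11 (mei3 and pat1) and 6 genes of the pheromone kinase cascade (gpa1, ste6, ste4, byr2, byr1 and spk1) were followed through 12 RNA sequencing libraries. These 10 genes were taken by their symbols from tables of 5160 genes. The libraries fall into 4 groups of 3: a wild type (WT) and 3 strains in which lysines 5, 10 and 15 of histone H2B were replaced together, with alanine (genotype H2BK5AK10AK15A, group A), with glutamine (H2BK5QK10QK15Q, group Q) or with arginine (H2BK5RK10RK15R, group R). The label of A replicate 2 gives position 16, not 15, for the third substitution. The design sets each mutant strain against the wild type. The labels do not give the mating type, the growth medium or whether the replicates were separate cultures, so the p-values below measure the spread between these libraries, which may be technical. RNA was poly(A)-selected whole-cell RNA.

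Sexual differentiation in this yeast is switched on by Ste11, a transcription factor with an HMG box that activates genes for mating and for entry into meiosis, its own gene among them. Mating pheromones bind receptors coupled to the G protein alpha subunit Gpa1. The signal passes, with Ras1 and the adaptor Ste4, through the kinases Byr2, Byr1 and Spk1. Mei2 is an RNA-binding protein needed for meiosis, the kinase Pat1 holds Mei2 and Ste11 inactive, and Mei3 is an inhibitor of Pat1.

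The substituted codons are shown because they define the groups. The first codons of htb1, the H2B gene, run as follows at III:1412484-1412537 on the forward strand (RefSeq assembly ASM294v3), with the lysine codons at positions 5, 10 and 15, counted without the start codon, in capitals.
htb1: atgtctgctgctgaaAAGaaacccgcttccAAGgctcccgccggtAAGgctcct
Counted in the same way, position 16 is not a lysine codon, whereas counted with the start codon it is the codon labelled 15. The substituted bases were not read here. The level of htb1 was 3270 ± 192 CPM in WT (mean ± SD, n = 3), 10900 ± 5780 in A, 1250 ± 111 in Q and 5430 ± 196 in R, where CPM is the count scaled to the total of the library. It rose in A (adjusted p = 0.0174, edgeR) and R (0.0438) and fell in Q (0.00528).

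The binding motif of Ste11, the TR box, is shown because it links Ste11 to several of these genes in the literature on this yeast. It was searched as the core TTCTTTG and as the longer TTCTTTGTT, which contains the core, on both strands of the 1000 bases before each annotated gene start. The longer motif was present before 5 of the 10 genes and before 289 of 5112 protein-coding genes (5.65%). The core was present before 6 of the 10 and before 1648 of the 5112 (32.2%). The sites are printed on the strand that carries the motif, which is in capitals, with its position in ASM294v3.
ste11, II:3983240-3983266, forward strand: aagttgaatTTCTTTGTTtgattttca
mei2, I:4515168-4515194, reverse strand: ccgaccgatTTCTTTGTTcctatttta
mei2, I:4515146-4515172, reverse strand: ttttaaagtTTCTTTGTTttacaaacc
ste4, I:1296580-1296606, reverse strand: gagtatgctTTCTTTGTTataaaagta
spk1, I:3001688-3001714, forward strand: tcgcgcataTTCTTTGTTtacactaac
spk1, I:3001563-3001589, forward strand: aaagaaagtTTCTTTGTTaatgtattg
spk1, I:3001551-3001577, reverse strand: aaagaaactTTCTTTGTTattgtaagt
ste6, III:1765897-1765923, reverse strand: tttgggaatTTCTTTGTTtactaacaa
All 8 longer matches lay within 187 bases of the gene start. The match nearest to a start was 50 bases before spk1 and the farthest 187 bases before it. The longer motif was not found before gpa1, mei3, pat1, byr1 or byr2, and mei3 had 1 core match. A match is a description of the sequence, and no binding was measured.

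**Figure D1:**
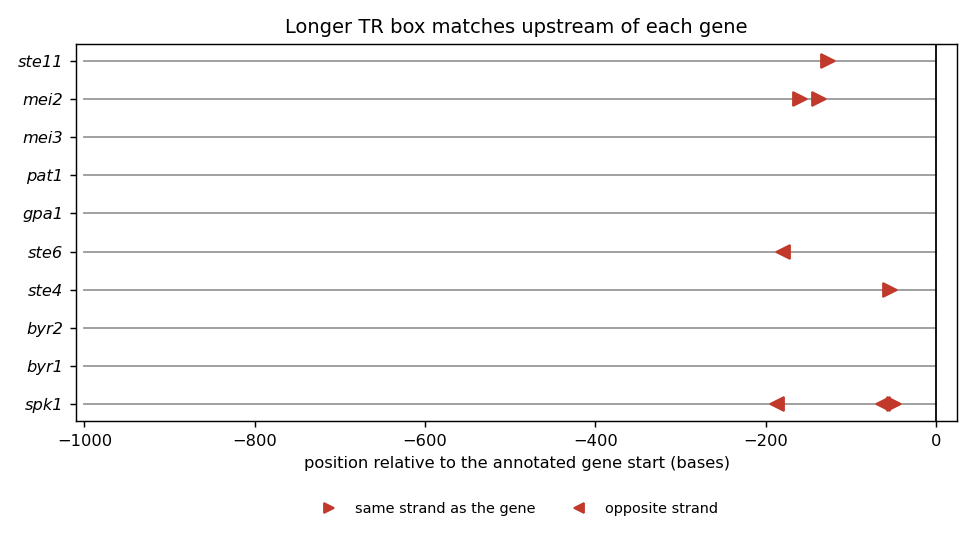
Matches to the longer TR box motif in the 1000 bases before the annotated start of each gene; the x axis is the distance from the gene start in bases, and triangles point right for the strand of the gene and left for the opposite strand. The 8 matches belong to ste11, mei2, ste6, ste4 and spk1 and lie within 187 bases of the start.

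Against WT, 4 of the 10 genes rose in A (ste11, mei2, ste4 and gpa1) and 6 rose in Q and in R (the same 4 with spk1 and ste6). At an unadjusted p below 0.05, 1 of the 10, byr2 in A, was lower, and the share of all genes at that threshold is not given here. In the fit of all 12 libraries none was called lower in any mutant by DESeq2 or by edgeR's quasi-likelihood test, where a call is an adjusted p (Benjamini-Hochberg, over all genes) below 0.05. Of all 5024 genes tested, 4.16% were called for A (2.73% higher and 1.43% lower), 34.5% for Q (18.6% higher and 15.8% lower) and 24.2% for R (13.2% higher and 11.1% lower). The 10 genes had median log2 fold changes of 0.70 (A), 1.57 (Q) and 1.46 (R), beside 0.01, 0.02 and -0.01 over all genes tested. The A, Q and R comparisons share the WT libraries and are not independent of each other. In such bulk RNA a larger number of expressing cells and more RNA per cell cannot be told apart. All 10 genes passed the filter on low counts.

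**Figure D2:**
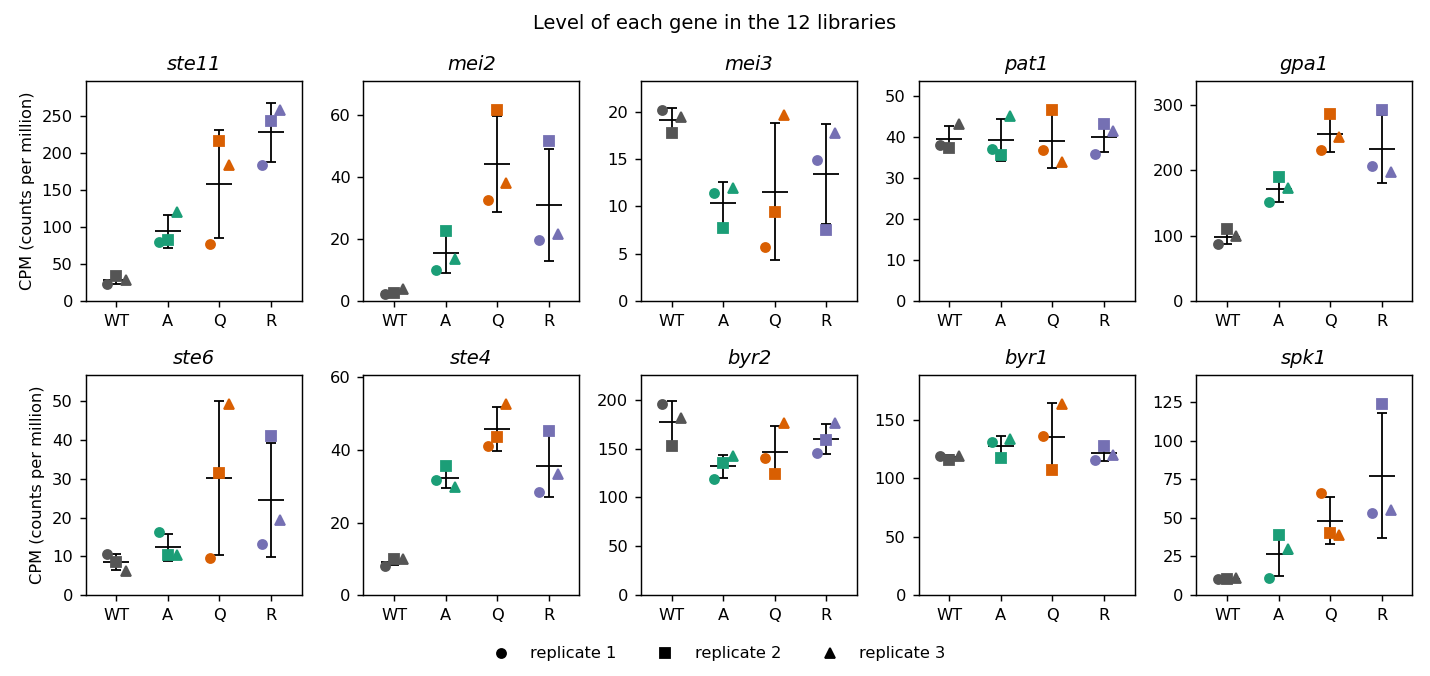
CPM of each gene in each of the 12 libraries by group, with replicates 1, 2 and 3 as circles, squares and triangles and the mean ± SD of 3 libraries in black. ste11, mei2, ste4 and gpa1 have no mutant library within the WT range, whereas pat1 overlaps WT in all 3 mutants.

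ste11 (SPBC32C12.02, II:3983376-3987400, forward strand) rose in all 3 mutants. It was at 23.5, 34.1 and 29.2 CPM in WT replicates 1, 2 and 3, at 79.7, 83.1 and 120 in A, at 76.8, 216 and 183 in Q and at 183, 243 and 258 in R. Every mutant library was above every WT library, Q replicate 1 was just below the lowest A library and far below the other Q libraries, and every R library was above every A library. The log2 fold change was 1.75 ± 0.33 (SE; adjusted p = 0.0197, edgeR) in A, 2.44 ± 0.34 (0.00222) in Q and 3.07 ± 0.35 (0.000355) in R. The call in A was lost without any 1 WT library and without A replicate 2 or 3, with an adjusted p up to 0.108. Over all genes, those fits called 2 to 67 in A, beside 209 in the main fit. The calls in Q and R held in all 22 alternatives.

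mei2 (SPAC27D7.03c, I:4510983-4515025, reverse strand), the lowest of the 10 genes per length in WT, rose in all 3 mutants. It was at 2.49, 2.79 and 4.07 CPM in WT, at 10.1, 22.8 and 13.8 in A, at 32.6, 61.8 and 38.2 in Q and at 19.7, 51.8 and 21.6 in R. Replicate 2 was the highest library in each mutant, and no mutant library reached down to WT. Against WT it differed by 2.37 ± 0.45 on the log2 scale (adjusted p = 0.0197, edgeR) in A, 3.82 ± 0.47 (0.00197) in Q and 3.39 ± 0.46 (0.000994) in R. The difference in Q was 14.1-fold, and the WT libraries held 45 to 63 counts each. The call in A was lost without any 1 WT library or without A replicate 2 (adjusted p up to 0.107).

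pat1 (SPBC19C2.05, II:1682861-1684555, forward) and mei3 (SPBC119.04, II:719719-720990, forward), whose products regulate Mei2, had no call in any mutant. pat1 was at 38.2, 37.3 and 43.3 CPM in WT, at 37.1, 35.6 and 45.1 in A, at 36.8, 46.7 and 33.9 in Q and at 35.8, 43.2 and 41.5 in R. All 4 groups overlapped, and the approximate 95% intervals of the log2 fold change were -0.33 to 0.38 in A, -0.39 to 0.33 in Q and -0.25 to 0.47 in R. mei3 was at 20.2, 17.8 and 19.4 CPM in WT, at 11.4, 7.71 and 11.9 in A, at 5.68, 9.45 and 19.6 in Q and at 14.9, 7.56 and 17.8 in R. Its A libraries were below WT, whereas Q replicate 3 was within the WT range. In R, replicate 3 was level with the lowest WT library, replicate 2, both at 17.8 CPM. The fit scales libraries further by TMM factors, 0.9418 for R replicate 3 and 1.033 for WT replicate 2. With these, R replicate 3 is above WT replicate 2, so R was not separate from WT. The log2 fold change of mei3 was -0.85 (interval -1.72 to 0.02; adjusted p = 0.21, edgeR) in A, -0.76 (-1.63 to 0.11; 0.155) in Q and -0.41 (-1.27 to 0.45; 0.46) in R. mei3 was called lower when A and WT were fitted alone (-0.87, adjusted p = 0.0172) and in Q without Q replicate 3 (-1.35, 0.0244).

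Among the upstream parts of the cascade, gpa1 rose in all 3 mutants and ste6 rose in Q and R. gpa1 (SPBC24C6.06, II:2329710-2331890, forward), for the G protein alpha subunit, was at 87.1, 110 and 99.1 CPM in WT, at 151, 190 and 173 in A, at 230, 286 and 251 in Q and at 207, 292 and 197 in R. The A libraries lay between those of WT and those of Q and R without overlap. The change of gpa1 was 0.84 ± 0.16 on the log2 scale (adjusted p = 0.0212, edgeR) in A, 1.35 ± 0.17 (0.00197) in Q and 1.32 ± 0.17 (0.000643) in R. The call of gpa1 in A was lost without any 1 WT library and without A replicate 2 or 3 (adjusted p up to 0.114).

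ste6 (SPCC1442.01, III:1766086-1768971, forward) encodes the guanine nucleotide exchange factor that activates Ras1 in the pheromone response. It was at 10.6, 8.55 and 6.34 CPM in WT, at 16.4, 10.3 and 10.4 in A, at 9.65, 31.4 and 49.4 in Q and at 13.1, 41.0 and 19.3 in R. Q replicate 1 lay within WT and the other Q libraries far above it, and the highest Q library was 5.12 times the lowest, the widest spread of any of the 10 genes in any group. On the log2 scale ste6 differed from WT by 0.56 ± 0.51 (adjusted p = 0.521, edgeR) in A, 1.79 ± 0.51 (0.0202) in Q and 1.59 ± 0.51 (0.0416) in R. The call in Q was lost without WT replicate 2 or 3 or Q replicate 2 or 3 (adjusted p up to 0.0769), and the call in R was lost in 12 of 22 alternatives, with an adjusted p of 0.193 without R replicate 2 and 0.0526 with the replicate block.

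The gene SPCC1442.02 (glm2 in RefSeq) lies downstream on the same strand and shares 15 bases with the end of ste6. It was at 88.8, 88.0 and 77.3 CPM in WT, at 112, 104 and 69.4 in A, at 91.4, 314 and 239 in Q and at 91.8, 243 and 101 in R. Like ste6, it was near WT in Q replicate 1 and highest among the R libraries in replicate 2. It rose in Q (log2 fold change 1.33, adjusted p = 0.0295, edgeR) and was not called in R (0.85, 0.144). Its part in the ste6 result was not tested.

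ste4 (SPAC1565.04c, I:1295316-1296543, reverse), for the adaptor that binds Byr2, rose in all 3 mutants with the lowest adjusted p of the 10 genes in each. It was at 8.03, 9.92 and 9.83 CPM in WT, at 31.8, 35.5 and 29.7 in A, at 41.2, 43.6 and 52.8 in Q and at 28.5, 45.1 and 33.3 in R. No mutant library came near WT, and Q was above A in every library. Log2 fold changes of ste4 were 1.84 ± 0.18 (adjusted p = 0.000927, edgeR) in A, 2.28 ± 0.18 (9.25e-05) in Q and 2.03 ± 0.18 (4.67e-05) in R. The call in A held in all 22 alternatives, with an adjusted p up to 0.0131, and it was the only call among the 10 genes that remained in A without WT replicate 1, 2 or 3 or A replicate 2.

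The upper kinases of the cascade, byr2 and byr1, were not called in the fit of all libraries. byr2 (SPBC1D7.05, II:1740048-1742344, reverse), the MAP kinase kinase kinase gene, was at 196, 153 and 181 CPM in WT, at 119, 135 and 142 in A, at 124 to 176 in Q and at 145 to 176 in R. Its A libraries were below WT without overlap (log2 fold change -0.39, interval -0.70 to -0.07, adjusted p = 0.13, edgeR), and Q and R overlapped WT (-0.30 and -0.05, adjusted p = 0.123 and 0.824). byr1 (SPAC1D4.13, I:668004-669742, forward), the MAP kinase kinase gene, was at 116 to 119 CPM in WT, at 117 to 134 in A, at 107 to 164 in Q and at 116 to 128 in R. Its log2 fold changes were 0.15 (-0.11 to 0.40), 0.17 (-0.09 to 0.43) and 0.14 (-0.12 to 0.39), with adjusted p of 0.467, 0.269 and 0.409 (edgeR). In Q, byr2 was called lower without Q replicate 3 (-0.44, adjusted p = 0.0452), and byr1 was called higher without replicate 2 of all 3 mutants (0.27, 0.0423).

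spk1 (SPAC31G5.09c, I:2999546-3001518, reverse), the MAP kinase gene at the end of the cascade, rose in Q and R. It was at 10.7, 10.2 and 10.8 CPM in WT, at 10.8, 38.7 and 30.0 in A, at 66.0, 40.0 and 38.9 in Q and at 53.1, 124 and 55.0 in R. A replicate 1 was at the WT level while the other A libraries were not, and R replicate 2 was the highest of all. The log2 fold change was 2.17 ± 0.44 (adjusted p = 0.00584, edgeR) in Q and 2.95 ± 0.45 (0.00222) in R. In A it was 1.38 ± 0.44 (adjusted p = 0.0834), and there it was called by DESeq2 (0.0138), without A replicate 1 (1.77, 0.0343) and without R replicate 2 (0.0386).

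The coding gene ups1 lies on the opposite strand of spk1 and shares 1525 of its 1973 bases. The handling of strand is not given in the sources used here, so reads of the pair cannot be told apart. ups1 was at 98.3 ± 2.58 CPM in WT, 83.6 ± 11.8 in A, 82.3 ± 14.2 in Q and 82.9 ± 7.89 in R (n = 3 each) and was not called (adjusted p = 0.426, 0.139 and 0.462, edgeR). Its part in the spk1 values was not tested. At least 1 annotated gene lies antisense to each of the 10 genes.

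**Figure D3:**
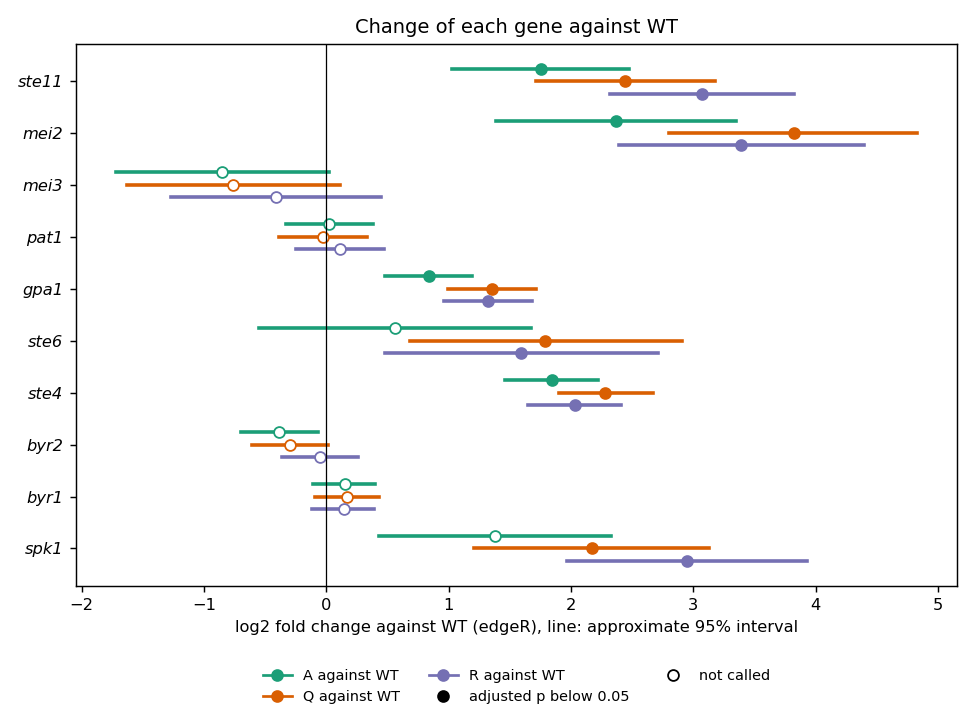
Log2 fold change of each gene in A, Q and R against WT (edgeR), with approximate 95% intervals; filled points have an adjusted p below 0.05 and open points do not. ste11, mei2, gpa1 and ste4 are filled in all 3 mutants, ste6 and spk1 in Q and R, and mei3, pat1, byr2 and byr1 in none.

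Without overlap between libraries, 5 of the 10 genes were higher and 2 lower in A than in WT, beside 18.5% of all genes higher and 22.0% lower. For Q, 5 were higher and 0 lower, beside 28.7% and 24.1%. For R, 6 were higher and 1 lower, beside 19.0% and 37.1%. All of these counts and shares are on CPM, without the TMM factors of the fit (0.9283 to 1.073), and near ties depend on that. Those higher in A included spk1, with A replicate 1 and WT replicate 3 both at 10.8 CPM. The gene lower in R was mei3, with R replicate 3 and WT replicate 2 both at 17.8 CPM. Within R, replicate 2 was the highest library in CPM for 7 of the 10 genes and replicate 1 the lowest for 8. The R factors were 0.9283, 0.9949 and 0.9418 for replicates 1, 2 and 3, so the scaling of the fit would lower replicate 2 against the others. The same counts over all genes are not given here.

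Levels were compared between the genes on the deposited FPKM, which is scaled for gene length. In WT the order was byr2 at 71.9 FPKM, byr1 at 61.1, gpa1 at 44.6, mei3 at 13.6, pat1 at 10.4, ste4 at 7.98, ste11 at 7.08, spk1 at 4.92, ste6 at 2.78 and mei2 at 0.773. Of these neighbours only ste4 and ste11 had overlapping ranges. In all 3 mutants gpa1 had the highest mean, at 77.3 FPKM in A, 115 in Q and 105 in R, and its range overlapped that of the next gene, byr1, in A. In R, ste11 was at 55.8 FPKM and no longer separated from byr1 at 63.0. The level of pat1 rests on a gene model longer than that of RefSeq, since its implied length was 3811 bases beside 1695.

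Ratios of these FPKM values within a library set some of these genes beside a partner. mei2 over pat1 was 0.0738 ± 0.0137 in WT, 0.384 ± 0.193 in A, 1.05 ± 0.208 in Q and 0.715 ± 0.363 in R (n = 3 each). The level of this ratio rests on the longer pat1 gene model, of 3811 bases beside 1695 in RefSeq. ste4 over its partner byr2 was 0.113 ± 0.0252 in WT, 0.523 ± 0.0695 in A, 0.668 ± 0.0651 in Q and 0.472 ± 0.112 in R. spk1 over byr1 was 0.0806 ± 0.00135 in WT, 0.191 ± 0.111 in A, 0.329 ± 0.111 in Q and 0.565 ± 0.265 in R. The ratios of mei2 to pat1 and of ste4 to byr2 were above WT in every mutant library. That of spk1 to byr1 was above WT in every Q and R library but not in every A library. ste6 over gpa1 was 0.0637 ± 0.0220 in WT, 0.0537 ± 0.0215 in A, 0.0843 ± 0.0564 in Q and 0.0729 ± 0.0282 in R. Its range overlapped that of WT in all 3 mutants.

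Between the mutants none of the 10 genes was called by edgeR in the main fit, which does not pair libraries. Of all genes tested, 0.0398% were called between Q and A, 2.47% between R and A and 3.64% between Q and R. At an unadjusted p below 0.05, 4 of the 10 differed between Q and A, 5 between R and A and 0 between Q and R, beside 18.4%, 22.9% and 19.7% of all genes. DESeq2 called 1, 2 and 0 of the 10, beside 2.31%, 8.90% and 6.87% of all genes. Without overlap in CPM, 4 genes were higher in Q than in A and 4 higher in R than in A, beside 14.6% and 9.79% of all genes. The 4 in Q over A included spk1, at 38.9 CPM in its lowest Q library and 38.7 in its highest A library. All 10 overlapped between Q and R, where 20.7% of all genes did not. The approximate 95% interval of the log2 fold change of ste11 was -0.00 to 1.39 for Q against A, 0.62 to 2.02 for R against A and -1.32 to 0.06 for Q against R. With the replicate number as a block, which paired the libraries of R and A, 4 genes were higher in R than in A, where 7.25% of all genes were called: ste11 (1.33, adjusted p = 0.00835), gpa1 (0.48, 0.0208), mei2 (1.00, 0.0385) and spk1 (1.57, 0.0448).

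The 5 genes whose profile over the 12 libraries was closest to that of ste11 were mfs3, mam2, mde6, fmc1 and SPBC26H8.11c. Likeness was the root mean square difference of log2 CPM centred on each gene's mean, among 5023 other genes with a median of 1.22. mfs3, a membrane transporter of the major facilitator family, differed by 0.36 and went from 150 CPM in WT to 532 in A, 664 in Q and 1020 in R. mam2, the receptor for P-factor, differed by 0.38 and went from 15.2 to 28.2, 64.8 and 97.7. mde6 differed by 0.42, fmc1 by 0.43 and SPBC26H8.11c by 0.46. Of the other members, ste4 was at rank 16, spk1 at 42, gpa1 at 43, mei2 at 51 and ste6 at 70, whereas byr1, pat1, byr2 and mei3 were at ranks 1696, 1725, 2858 and 4448. All profiles come from the same 12 libraries, and this likeness is a description.

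**Figure D4:**
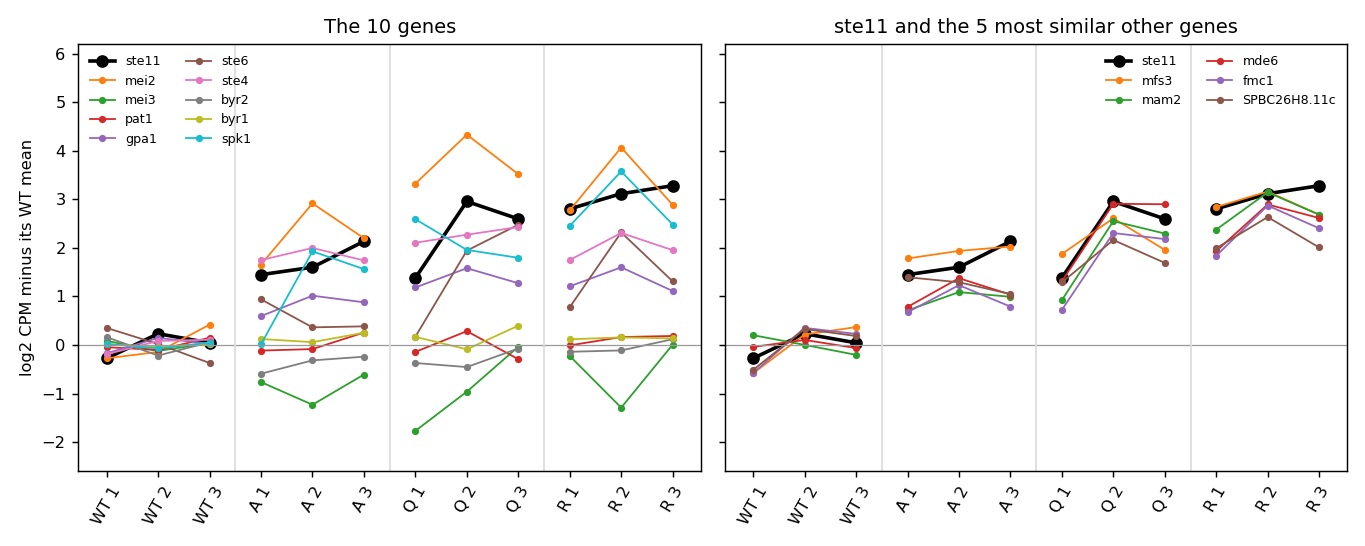
Log2 CPM minus its WT mean in the 12 libraries, with ste11 in black, for the 10 genes (left) and for ste11 with the 5 genes of the closest profile (right). mei2 lies above and mei3 below the others in most mutant libraries, and the 5 similar genes follow ste11, at 0.36 to 0.46 root mean square difference.

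The partners of the cascade and the genes it acts on were read from lists of the pathway. Of 10 upstream signalling partners, 1 rose and 0 fell in A, while 4 rose and 2 fell in Q and 4 rose and 1 fell in R. These calls, 1, 6 and 5 of the 10, stand beside 4.16%, 34.5% and 24.2% of all genes, and the median log2 fold changes were 0.21, 0.14 and 0.23. The call in A was lost without any 1 WT library or A replicate 2, and the calls in R fell to 2 without any 1 WT library. Calls over all genes also fell without 1 WT library, from 209 to as few as 2 in A and from 1218 to as few as 325 in R. The gene of the GTPase Ras1 rose from 29.0 ± 3.11 CPM in WT to 53.1 ± 11.9 in A, 72.0 in Q (66.4 to 77.4) and 62.3 in R (52.8 to 72.7; n = 3 each; adjusted p = 0.0197, 0.0021 and 0.00153, edgeR). mam2 rose in Q and R (log2 fold change 2.08 and 2.77), and shk2, a kinase of the PAK family, rose in Q (0.86). map3, the receptor for M-factor, chosen after its values were seen, fell in Q and R (-1.29 and -1.21).

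Of 16 genes of the pheromone and mating response, 2 rose and 0 fell in A, while 4 rose and 2 fell in Q and 7 rose and 3 fell in R. The shares called, 12.5%, 37.5% and 62.5%, stand beside 4.16%, 34.5% and 24.2% of all genes, so that for Q the share was near that of all genes. Median log2 fold changes of the list were -0.05, 0.09 and 0.24. The 2 calls in A became 0 without any 1 WT library and 1 without A replicate 2, and the 10 calls in R became 3 to 5 without 1 WT library or R replicate 2. Without 1 WT library, as few as 2 of all genes were called in A and 325 in R, beside 209 and 1218. mfm2, a gene of the M-factor precursor, rose from 42.0 ± 10.7 CPM in WT to 131 ± 43.9 in A, 165 ± 31.5 in Q and 245 ± 43.7 in R (n = 3 each). mam1, the M-factor exporter, rose in A, Q and R with log2 fold changes of 0.88, 0.85 and 1.77. sxa2, a peptidase that degrades P-factor, fell in Q and R (-0.49 and -1.01). map2, the P-factor precursor, chosen after its values were seen, fell from 101 CPM in WT to 26.4 in Q and 30.1 in R and was at 31.7 in A without a call.

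Marker genes of the mating types did not all go one way. The 6 M-cell markers (mfm1, mfm2, mfm3, mam1, mam2 and sxa2) summed to 120 to 139 CPM in WT, 220 to 301 in A, 271 to 387 in Q and 455 to 536 in R. The 5 P-cell markers (map1, map2, map3, map4 and sxa1) summed to 1320 to 1360 CPM in WT, 1320 to 1570 in A, 1650 to 2170 in Q and 1740 to 1910 in R, so that A overlapped WT. Most of this sum came from sxa1, at 1050, 1200, 1660 and 1600 CPM in WT, A, Q and R. Means of map1 were 19.4, 50.1, 79.4 and 56.9 CPM in that order, whereas those of map2 were 101, 31.7, 26.4 and 30.1 and those of map3 53.5, 27.5, 22.4 and 21.4. map4 was at 116, 117, 112 and 102 CPM. Among the M-cell markers, mfm2, mam1 and mam2 had higher means in all 3 mutants. sxa2 went from 31.1 CPM in WT to 25.7, 22.5 and 14.5, and mfm3 was under 1 CPM in every group. mfm1 was at 1.34, 0.792, 1.62 and 4.61 CPM in WT, A, Q and R and was called higher only in R (adjusted p = 0.017, edgeR). All of these 11 markers had counts in each group. The 7 markers of cells in meiosis (mei4, rec8, spo4, spo5, spo6, dmc1 and mfr1) summed to 186 to 207 CPM in WT, 180 to 200 in A, 180 to 201 in Q and 165 to 196 in R. Much of this sum came from dmc1 and mei4, at 86.3 and 54.7 CPM in WT, and single markers differed in direction. In WT, A, Q and R, rec8 was at 20.4, 22.4, 29.3 and 15.9 CPM, spo4 at 15.7, 17.1, 13.3 and 8.69 and spo5 at 17.9, 13.6, 27.8 and 23.7. spo4 was called lower in R (adjusted p = 0.0282, edgeR). mfr1 had counts only in WT replicate 2 (13) and A replicate 3 (10). The part of the mating types in the results was not tested.

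The other branches that act on Ste11 and Mei2 were read in the same way. In A, none of the genes of the cAMP and PKA branch (12 tested), the TOR branch (11), the stress MAPK branch (7), other regulators of ste11 (12), control of meiotic mRNA (9) and early meiosis (23) was called by edgeR. At an unadjusted p below 0.05, 5 of these 74 were higher and 5 lower in A, and the share of all genes at that threshold is not given here. DESeq2 called 2 of the 74 higher and 0 lower in A, beside 11.2% of all genes called. In Q, 2 rose and 2 fell of the cAMP and PKA branch, 3 and 0 of the TOR branch, 0 and 2 of the stress branch and 0 and 1 of the other regulators. The shares called in Q were 33.3%, 27.3%, 28.6% and 8.33%, none above the 34.5% of all genes. In R these counts were 1 and 0, 0 and 0, 0 and 0, and 1 and 1, and none of the shares was above the 24.2% of all genes. Without 1 WT library, the 4 calls of the cAMP and PKA branch in Q became 1. The 3 of the TOR branch in Q became as few as 1 in these fits. The 2 of the stress branch in Q became as few as 0, and the 2 of the other regulators in R became 0. These fits called as few as 841 of all genes in Q and 325 in R, beside 1731 and 1218 in the main fit. The TOR kinase gene tor2 rose in Q (log2 fold change 0.58, adjusted p = 0.00704), pcr1, a transcription factor of the stress branch, fell in Q (-0.84, 0.013), and gcn5, a histone acetyltransferase, fell in Q and R (-0.84 and -0.78; 0.013 and 0.0248).

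Of the 9 genes of meiotic mRNA control, 3 rose and 1 fell in Q and 2 and 1 in R, and of 23 early meiotic genes 5 and 0 in Q and 3 and 1 in R. For meiotic mRNA control these are 44.4% and 33.3% of the genes, and for the early meiotic genes 21.7% and 17.4%, beside 34.5% of all genes called for Q and 24.2% for R. mmi1, the RNA-binding protein that removes meiotic transcripts and that Mei2 counters, rose in Q and R (0.56 and 0.63; adjusted p = 0.0142 and 0.013). rhp6, a ubiquitin-conjugating enzyme, rose in Q and R (1.45 and 1.23). rec6, needed for meiotic recombination, rose from 1.60 ± 0.150 CPM in WT to 3.10 ± 0.455 in Q and 2.62 ± 0.480 in R (n = 3 each; adjusted p = 0.0163 and 0.0385). ssm4, a meiotic microtubule protein, rose from 5.93 ± 0.361 CPM in WT to 17.2 ± 3.08 in Q (adjusted p = 0.00452), and meu13 rose in R (2.69, 0.0277), where R replicate 2 at 6.67 CPM was far above the lowest library at 0.743. Medians over the early meiotic list were 0.10, 0.39 and 0.04 in A, Q and R, beside 0.01, 0.02 and -0.01 over all genes. Without 1 WT library, 1 to 2 early meiotic genes were called in Q and 0 to 1 in R. Those fits called as few as 841 of all genes in Q and 325 in R, beside 1731 and 1218 in the main fit.

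**Figure D5:**
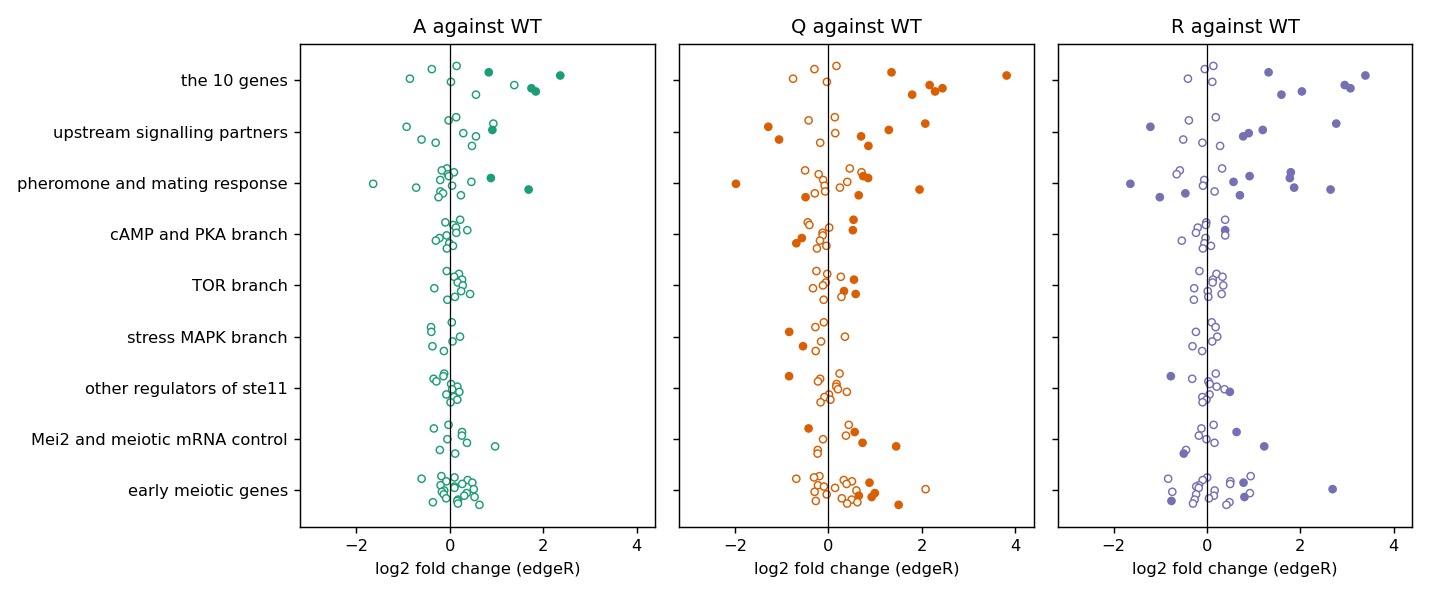
Log2 fold change against WT (edgeR) of the 10 genes and of the 8 pathway lists in A, Q and R, 1 point per gene tested, filled where the adjusted p is below 0.05. Filled points above a log2 fold change of 2 in Q or R come from the 10 genes, the signalling partners, the mating response and the early meiotic genes.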

How the data were processed

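RNA of 12 libraries in 4 groups was measured. DESeq2, RSEM, StringTie, HISAT2, Bowtie2 and fastp appear in the submitters' processing notes, with no role or version. Build, annotation and strand handling: not given in the sources used here. Each deposited table gives, per the file headers, a count and an FPKM value for every gene in a library, with the authors' log2 ratio and FDR (an adjusted p-value), which are not printed here. Counts summed to between 15329416 and 20050394 per library, so a floor of 3 counts was 0.15 to 0.196 CPM, and covers counting error only.

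The test was edgeR 4.0.16 on the counts, in R 4.3.3 (filterByExpr, 5024 genes kept and 136 left out, TMM, 1 quasi-likelihood fit of 12 libraries, 6 contrasts, Benjamini-Hochberg over all genes). SEs and intervals are approximate. Alternatives were DESeq2 1.42.0, other scalings and filters, a fit of 2 groups, a replicate block, limma 3.58.1 on log2(FPKM + 1) and log2(FPKM + 0.1), and libraries left out.

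The members, the lists and the alternatives were chosen with earlier results of these data known. Genes named from a list are up to 3 with the lowest p in any comparison with WT, and others are said to have been chosen later. The marker lists as first written had the receptors mam2 and map3 exchanged between M and P cells, and this was corrected after the values were seen. With the lists as first written, the M-cell sums were 159 to 172 CPM in WT, 225 to 289 in A, 253 to 336 in Q and 332 to 474 in R, and the P-cell sums 1280 to 1320, 1310 to 1580, 1660 to 2240 and 1790 to 2030.

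Pairing by replicate number was checked through correlated deviations from group means. For R and A these were 0.14, 0.33 and 0.26, and for Q and R 0.38, 0.41 and 0.32, each above 0.1. For Q and A they were -0.19, 0.24 and 0.17. With WT they were 0.12, 0.35 and 0.09 for A, -0.1, 0.11 and -0.09 for Q, and -0.09, 0.23 and -0.02 for R. The main fit did not use any pairing, which entered only through the replicate block as an alternative. No shared batch is labelled. Replicates differed beyond sampling noise (chi-square per degree of freedom 15.8 to 204). No member had a copy elsewhere at 95% identity over 50% of its length.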

Additional observations from a re-analysis of the deposited data

How the results depend on the processing

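With libraries left out in turn, between 1 and 5 of the 10 genes were called in A, 5 and 7 in Q, 5 and 6 in R, 0 and 2 between Q and A, 0 and 1 between R and A, and 0 and 0 between Q and R. In A the count was 1 without WT replicate 1, 2 or 3 or A replicate 2 and 2 without A replicate 3. Over all genes, these fits called 4, 2, 7, 14 and 67 in A, in that order, beside 209 in the main fit. Between Q and A, the count was 1 with DESeq2 and 1 without replicate 2 of all 3 mutants, and between R and A it was 2 with DESeq2 and 1 when those groups were fitted alone. By replicate number, the deviations of Q and A from their group means correlated at -0.19, 0.24 and 0.17, not all above 0.1. With the replicate block, the count was 2 between Q and A and 4 between R and A. The 2 were mei2 (1.47, adjusted p = 0.0256, edgeR) and gpa1 (0.52, 0.036). Between Q and R none of the 10 was called with the block. Over all genes, these settings called 116 (DESeq2), 453 (without replicate 2) and 96 (block) between Q and A, and 447 (DESeq2), 96 (fitted alone) and 364 (block) between R and A, beside 2 and 124. The block removed the call of ste6 in R (0.0526) and no other call against WT.
In 11 of the 60 comparisons of single genes the sign changed under at least 1 alternative, at 24 values in all, none of them called. The log2 fold change of pat1 in A was -0.01 with total counts, -0.02 with limma at either pseudocount and -0.10 to 0.10 without 1 library. Without 1 library, pat1 in Q ranged from -0.22 to 0.06, byr2 in R from -0.16 to 0.03, and between Q and A pat1 from -0.25 to 0.07, mei3 from -0.48 to 0.42, byr1 from -0.11 to 0.14 and byr2 from -0.05 to 0.16. byr1 ranged from -0.05 to 0.05 between R and A and from -0.10 to 0.15 between Q and R, where gpa1 ranged from -0.09 to 0.18 and ste6 from -0.31 to 0.73. The cause was not tested.
All genes called ranged from 2 to 628 in A, 841 to 2022 in Q and 325 to 1435 in R with libraries left out in turn. Between the mutants they ranged from 1 to 184 (Q and A), 51 to 333 (R and A) and 51 to 462 (Q and R). The list counts were recomputed too, an alternative chosen after seeing the data. At 3 libraries per group, a gene without a call is not shown to be unchanged.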
